A study of Danio rerio with 4 samples.

Results

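The proteasome subunit genes of zebrafish (Danio rerio) were followed across 4 RNA-seq libraries of larval tail tissue. Members were the rows of the count table whose gene symbol begins with psm, a letter from a to g and a digit, which gave 50 genes of 19924 features in all. They comprise 9 alpha-ring genes (psma) and 8 beta-ring genes (psmb) of the 20S core, 7 ATPase genes (psmc) and 15 non-ATPase genes (psmd) of the 19S regulatory particle, 5 activator genes (psme), the inhibitor gene psmf1 and 3 assembly chaperone genes (psmg). The other 2 rows, psmc3ip and psme3ip1, match by symbol but code for no subunit, and they were counted apart. Of the psmd genes, psmd5, psmd9 and psmd10 code in mammals for chaperones of the 19S base. They were kept in the counts, medians and sums of the 19S. The symbol rule uses no measured value, but it was chosen with earlier results of these data known.

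All fish came from 1 pair of parents heterozygous for cpa1 and cpa5 and were collected at 3 days post fertilization. Heads were used for genotyping and tails for RNA, with 500 ng of total RNA per library. One group of 2 libraries was from fish knocked out for both cpa1 and cpa5, whose products are carboxypeptidases, enzymes of the exocrine pancreas that digest protein. The other 2 libraries were from siblings of these fish, whose genotype label reads WT. Whether these siblings carried 1 mutant copy of either gene, as such a cross allows, is not labelled. The mutant alleles are not named in the labels. In each group the libraries are numbered 3 and 4. Neither what this number marks nor how many fish each library holds is stated. The p-values therefore reflect library-to-library spread alone, part of which may be technical. Genotype was fitted with no term for the number, so there this spread includes the difference between the numbers. RNA of a whole tail cannot separate fewer cells of a type from less RNA per cell.

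The proteasome is the main protease for ubiquitin-tagged proteins in the cytosol and nucleus. Its 20S core is a barrel of stacked rings, with alpha subunits forming the gated outer rings and beta subunits, some of them catalytic, the inner rings. The 19S particle caps the barrel, binds ubiquitin, removes it and uses ATPases to unfold the protein. Activators can take its place, among them PA28 (psme1, psme2 and psme3) and PA200 (psme4). In mammals PA28 alpha and beta (PSME1 and PSME2) and the immunoproteasome subunits are induced by interferon and serve the making of peptides for MHC class I. PA28 gamma (PSME3) is nuclear there.

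Total counts ran from 24769258 to 35343524 per library, and the 50 genes took between 0.221% and 0.252% of them. The targeted gene cpa5 was read 2079 times in sibling replicate 3 and 397 times in sibling replicate 4, against 19 and 15 times in the knockouts of those numbers. cpa1 was not analysed here. All 6 skeletal muscle markers and all 5 posterior Hox markers were measured, with summed levels of 44100 to 57300 CPM (read counts divided by TMM-scaled library size) and of 52.1 to 66.9 CPM. The 2 measured head markers, foxg1a and otx2b, summed to 1.99 to 3.62 CPM. Of all features, 1393 (6.99%) were called higher and 1625 (8.16%) lower in the libraries numbered 4 than in those numbered 3 (edgeR quasi-likelihood test, Benjamini-Hochberg adjusted p below 0.05). Between genotypes 0 features (0.0%) were called, with a smallest adjusted p of 0.273, and 100 (0.502%) had an unadjusted p below 0.05. DESeq2 called 19 features between genotypes.

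Levels between genes were compared as FPKM, the deposited value scaled by gene length and library size. FPKM did not follow CPM alike for every gene. In siblings numbered 3 and 4, psmd11b had 57.9 and 58.3 CPM but 17.7 and 13.8 FPKM. The 20S and 19S genes were mostly far above the median feature and the activators mostly near it. The median gene had a mean over the 4 libraries of 53.3 FPKM among beta genes, 30.1 among alpha genes, 36.5 among 19S ATPase genes, 26.3 among 19S non-ATPase genes, 10.1 among assembly chaperones and 2.57 among activators. The median over all 19924 features was 3.20 FPKM.

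The highest gene was psmb7, which codes for the beta subunit with trypsin-like activity, at 77.5, 87.7, 82.2 and 90.3 FPKM in, first, the siblings numbered 3 and 4 and then the knockouts numbered 3 and 4 (the order used throughout). Its lowest library lay at the level of the highest library of psma8, an alpha-ring gene at 72.5, 63.4, 77.5 and 66.5 FPKM, so these neighbours touched in their ranges. Next came the beta genes psmb1, at a mean of 68.7 FPKM, and psmb4, at 63.2 FPKM, whose ranges over libraries overlap each other and that of psma8. The other catalytic subunits were lower: psmb6, with caspase-like activity, had a mean of 31.5 FPKM, and psmb5, with chymotrypsin-like activity, had one of 14.4 FPKM.

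The row of psmb5 does not hold all reads described as this gene. It had 620, 660, 638 and 771 counts, while an assembled model that the table describes as psmb5 had 1872, 2049, 2088 and 2364. Its level of 14.4 FPKM is therefore that of the row alone. The assembled model stood at a mean of 44.6 FPKM. With both summed, the log2 difference between knockout and sibling was 0.10, against 0.06 for the row alone, and neither passed the test.

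At the low end were psma6l, an alpha gene at a mean of 1.30 FPKM, and psme1, at 1.61 FPKM. The remaining genes below 5 FPKM were psmc3ip at 1.88, psme4a at 2.07, psme2 at 2.57, psmd10 at 3.32, psmf1 at 3.92 and psmb10 at 4.99. In mammals psmd10 codes for gankyrin, a chaperone of the 19S base, PSMF1 is the inhibitor PI31, and PSMB10 is the immunoproteasome counterpart of psmb7. The spread over libraries was wide for several of these genes, as psma6l ranged from 0.572 to 2.19 FPKM and psme1 from 0.809 to 3.89 FPKM, so their order is not resolved. The symbol rule found no row for psmd2 or for the other immunoproteasome beta genes, so the sums below do not hold them.

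**Figure D1:**
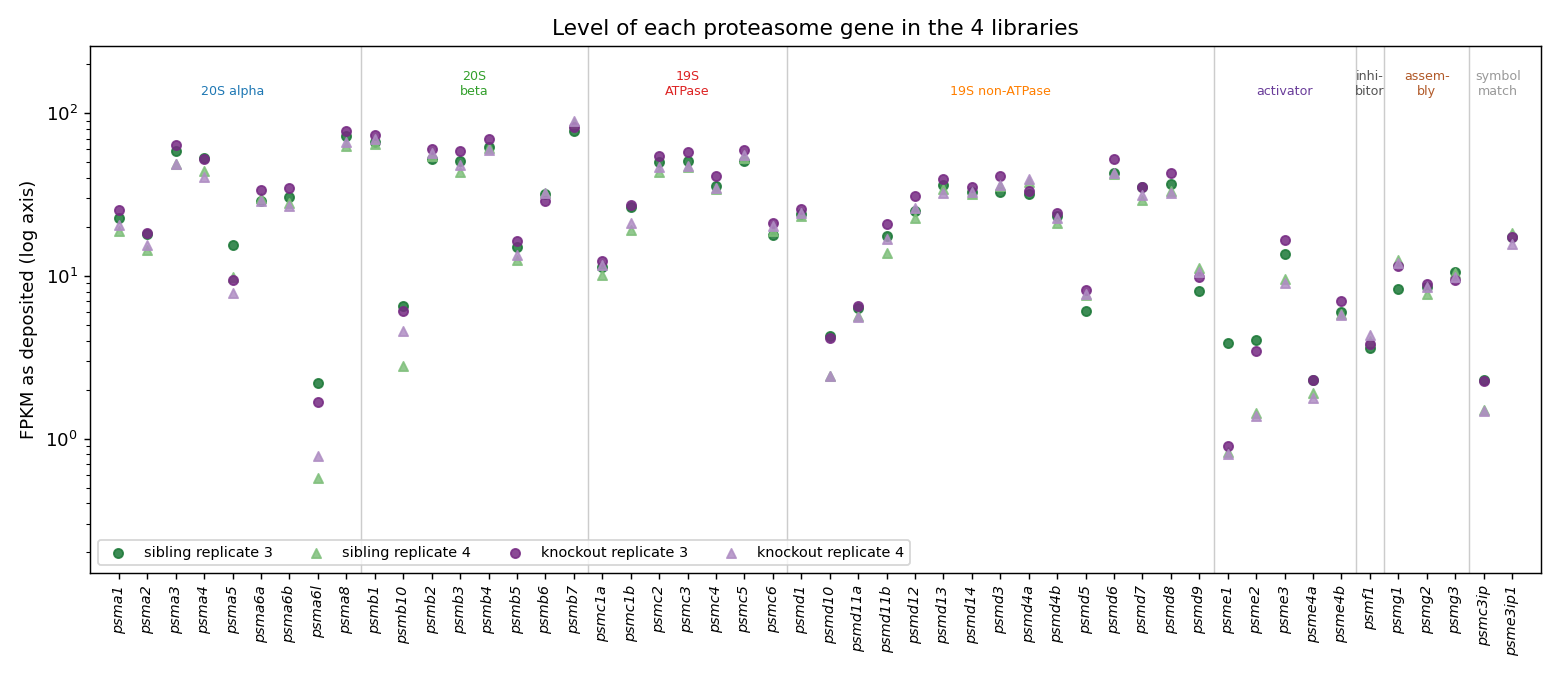
FPKM as deposited (vertical log axis) of each of the 50 proteasome genes (horizontal axis, grouped by role) in the 4 libraries, with 1 point per library, circles for replicate 3, triangles for replicate 4, green for siblings and purple for knockouts. Most 20S and 19S genes sit between 10 and 90.3 FPKM with overlapping points, while psma6l, psmb10, psmd10, psme1 and psme2 sit lower with points spread apart.

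For 5 subunits the members include a pair of gene copies marked a and b. The share of the pair's summed FPKM taken by the first copy was computed in each library. psma6l was left out of the psma6 pair. The psma6 copies were nearly even, with psma6a at 48.7% and 49.1% in the replicate 3 libraries and 51.6% and 51.7% in the replicate 4 libraries. psmc1a, a copy of the gene for the ATPase Rpt2, took 29.8% and 30.9% in the replicate 3 libraries and 34.8% and 35.7% in the replicate 4 libraries. psmd4a, a copy of the gene for the ubiquitin receptor Rpn10, took 57.8% and 57.7% in replicate 3 and 64.2% and 63.7% in replicate 4. For each of these pairs the libraries of 1 number lay on 1 side of those of the other, whatever the genotype. No such split was tested. By level, both replicate 4 libraries lay below both replicate 3 libraries for 32.9% of all features and above them for 32.8%. psmd11a took 26.4% and 29.0% in the siblings and 23.7% and 24.9% in the knockouts. psme4a took 27.6% and 24.8% in the siblings and 24.7% and 23.8% in the knockouts. Both shares were thus lower in both knockouts, also untested. By level, both knockouts lay below both siblings for 9.01% of all features and above for 8.72%. The psmd11a share rests on the FPKM of psmd11b, which did not follow its CPM in the siblings. How reads shared between copies were counted is not stated, so the shares are uncertain.

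The study asked what the loss of both carboxypeptidase genes changes. No proteasome gene passed the test between genotypes: 0 of 50 had an adjusted p below 0.05 in edgeR or in DESeq2, and 0 of 50 had an unadjusted p below 0.05 in edgeR, against the 0.502% of all features given above. Of the 50, 0 were listed as changed in the authors' deposited table. The targeted gene cpa5, with a log2 difference of -6.34 between genotypes, was not called in edgeR either. The 0.502% of all features is itself far below the share that a threshold of 0.05 lets through when no feature differs. The edgeR genotype test could thus call hardly any gene, so 0 of 50 does not show that the proteasome genes were unchanged. The median log2 difference of the 50 genes, knockout over sibling, was 0.04, and that of all features was -0.01. The genes ran from -1.50 (psme1) to 0.21 (psmd12), with 38 above 0 and 12 below. Among all features 47.9% were above 0.

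The 20S core summed to 888, 846.7, 888.2 and 874.2 CPM in the 4 libraries. The groups overlap, with means of 867.4 ± 29.2 CPM for siblings and 881.2 ± 9.93 CPM for knockouts (SD, n = 2). In FPKM the core summed to 665.4, 619.5, 713.3 and 631.5. The CPM and FPKM sums cover the rows of the symbol rule, so the assembled model described as psmb5 is not in them. The median log2 difference was 0.01 over the alpha genes and 0.06 over the beta genes.

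The 3 constitutive catalytic genes lay close together over the genotypes. psmb5 (ENSDARG00000075445) was at 24.2, 20.9, 24.6 and 22.3 CPM, psmb6 (ENSDARG00000002240) at 49.2, 52.1, 42.0 and 52.4 CPM, and psmb7 (ENSDARG00000037962) at 99.8, 116, 98.6 and 121 CPM. The groups overlap for psmb5 and psmb7, and for psmb6 knockout replicate 3 was the lowest library and knockout replicate 4 the highest. Their log2 differences between genotypes were 0.06 ± 0.18 (SE; 95% interval -0.42 to 0.53), -0.10 ± 0.18 (-0.59 to 0.39) and 0.03 ± 0.20 (-0.50 to 0.56). psmb10 (ENSDARG00000043781) had 8.58, 3.81, 7.52 and 6.26 CPM, with both knockout libraries inside the range of the siblings.

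psma5 (ENSDARG00000003526), an alpha-ring gene, was at 20.1, 13.0, 11.6 and 11.4 CPM. Both knockout libraries lay below both siblings, and sibling replicate 3 stood above the other 3 libraries. Its log2 difference of -0.53 ± 0.27 had an interval of -1.25 to 0.20, and without sibling replicate 3 it was -0.18. It was the sole alpha gene with both knockout libraries on 1 side of both siblings.

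The 19S particle summed to 1260, 1249, 1335 and 1303 CPM, of which the chaperone genes psmd5, psmd9 and psmd10 made 28.11, 32.9, 32.2 and 32.69 CPM. In CPM both knockout libraries were above both siblings. The means were 1319 ± 23.0 CPM for knockouts and 1255 ± 8.05 CPM for siblings (SD, n = 2), a log2 ratio of 0.07. In FPKM the particle summed to 607.8, 579.3, 686.2 and 601.8, and on that scale the groups overlap. With 2 libraries against 2, an exact permutation test cannot give a two-sided p below 0.333, so neither sum was tested. All 7 ATPase genes had a log2 difference above 0, from 0.04 to 0.13 with a median of 0.08, and 13 of 15 non-ATPase genes had one above 0, with a median of 0.03. The 95% interval of each of the 22 differences spans 0.

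Within the 19S, psmd12 had the largest difference. This gene for the lid subunit Rpn5 (ENSDARG00000052377) was at 74.3, 69.9, 86.0 and 81.1 CPM, with both knockout libraries above both siblings. Its log2 difference was 0.21 ± 0.16, with an interval of -0.21 to 0.63 and an edgeR p of 0.24 before adjustment. psmc6, for the ATPase Rpt4, was at 34.0, 37.8, 37.7 and 40.7 CPM, a log2 difference of 0.13 ± 0.16, and its groups overlap. psmd6, for the lid subunit Rpn7, was at 75.2, 76.5, 85.8 and 78.2 CPM, with both knockouts above both siblings, and a log2 difference of 0.11 ± 0.16. psmd5, which codes in mammals for a chaperone of the 19S base, was at 13.1, 17.3, 16.8 and 17.6 CPM, and the low value was that of sibling replicate 3.

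Counted over all members, both knockout libraries lay above both siblings for 9 genes (2 beta, 3 ATPase and 4 non-ATPase), against 8.72% of all features. Both lay below for 4 genes, against 9.01% of all features. These counts carry no test, and members of 1 complex are not independent of each other.

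Among the activators, psme1 (ENSDARG00000002165) had the most negative difference of all members. It was read at 140, 39, 30 and 41 counts, or 5.46, 1.24, 1.16 and 1.19 CPM. Sibling replicate 3 was high, and the other 3 libraries lay together. The log2 difference was -1.50 ± 0.76 with an interval of -3.55 to 0.54, and without sibling replicate 3 it was -0.08. The authors' deposited table lists -1.51 with a p of 0.0653 before adjustment.

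psme2 and psme3 had log2 differences between genotypes of -0.23 ± 0.64 and 0.10 ± 0.33, and their groups overlap. For the PA200 genes the log2 differences were -0.09 ± 0.19 (psme4a) and 0.04 ± 0.16 (psme4b). The activators summed to 114.7, 95.06, 117 and 90.99 CPM, with means of 104.9 ± 13.9 CPM for siblings and 104 ± 18.4 CPM for knockouts (SD, n = 2). Here the high libraries were those numbered 3 in both groups.

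The inhibitor and the assembly chaperones also overlap between genotypes or have wide intervals. psmf1 was at 5.69, 6.47, 5.63 and 7.10 CPM. psmg1, for 1 member of the PAC1 and PAC2 pair that starts the alpha ring, was at 11.6, 18.1, 15.1 and 17.5 CPM, and its partner psmg2 was at 11.2, 10.7, 11.0 and 11.8 CPM. psmg3, for PAC3, was at 10.6, 10.8, 8.83 and 10.3 CPM, with both knockouts below both siblings, and its log2 difference was -0.16 ± 0.19.

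A p above the threshold does not show that the genes were equal, so the intervals were counted. For 17 of the 50 genes (34.0%) the 95% interval of the genotype difference lay within 0.5 log2 units on either side of 0. The share was 6.23% over all features and 12.7% over the 9656 features with a mean of at least 10 CPM. The members were higher in level, at a median of 23.2 FPKM against 3.2 and 8.29 in those sets. No set matched in level was compared. These 17 were 4 alpha, 2 beta, 3 ATPase and 7 non-ATPase genes and 1 activator, psme4b. For the remaining genes the interval reached past that band. The genotype fit has no term for the number, so these intervals also hold the difference between the numbers.

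**Figure D2:**
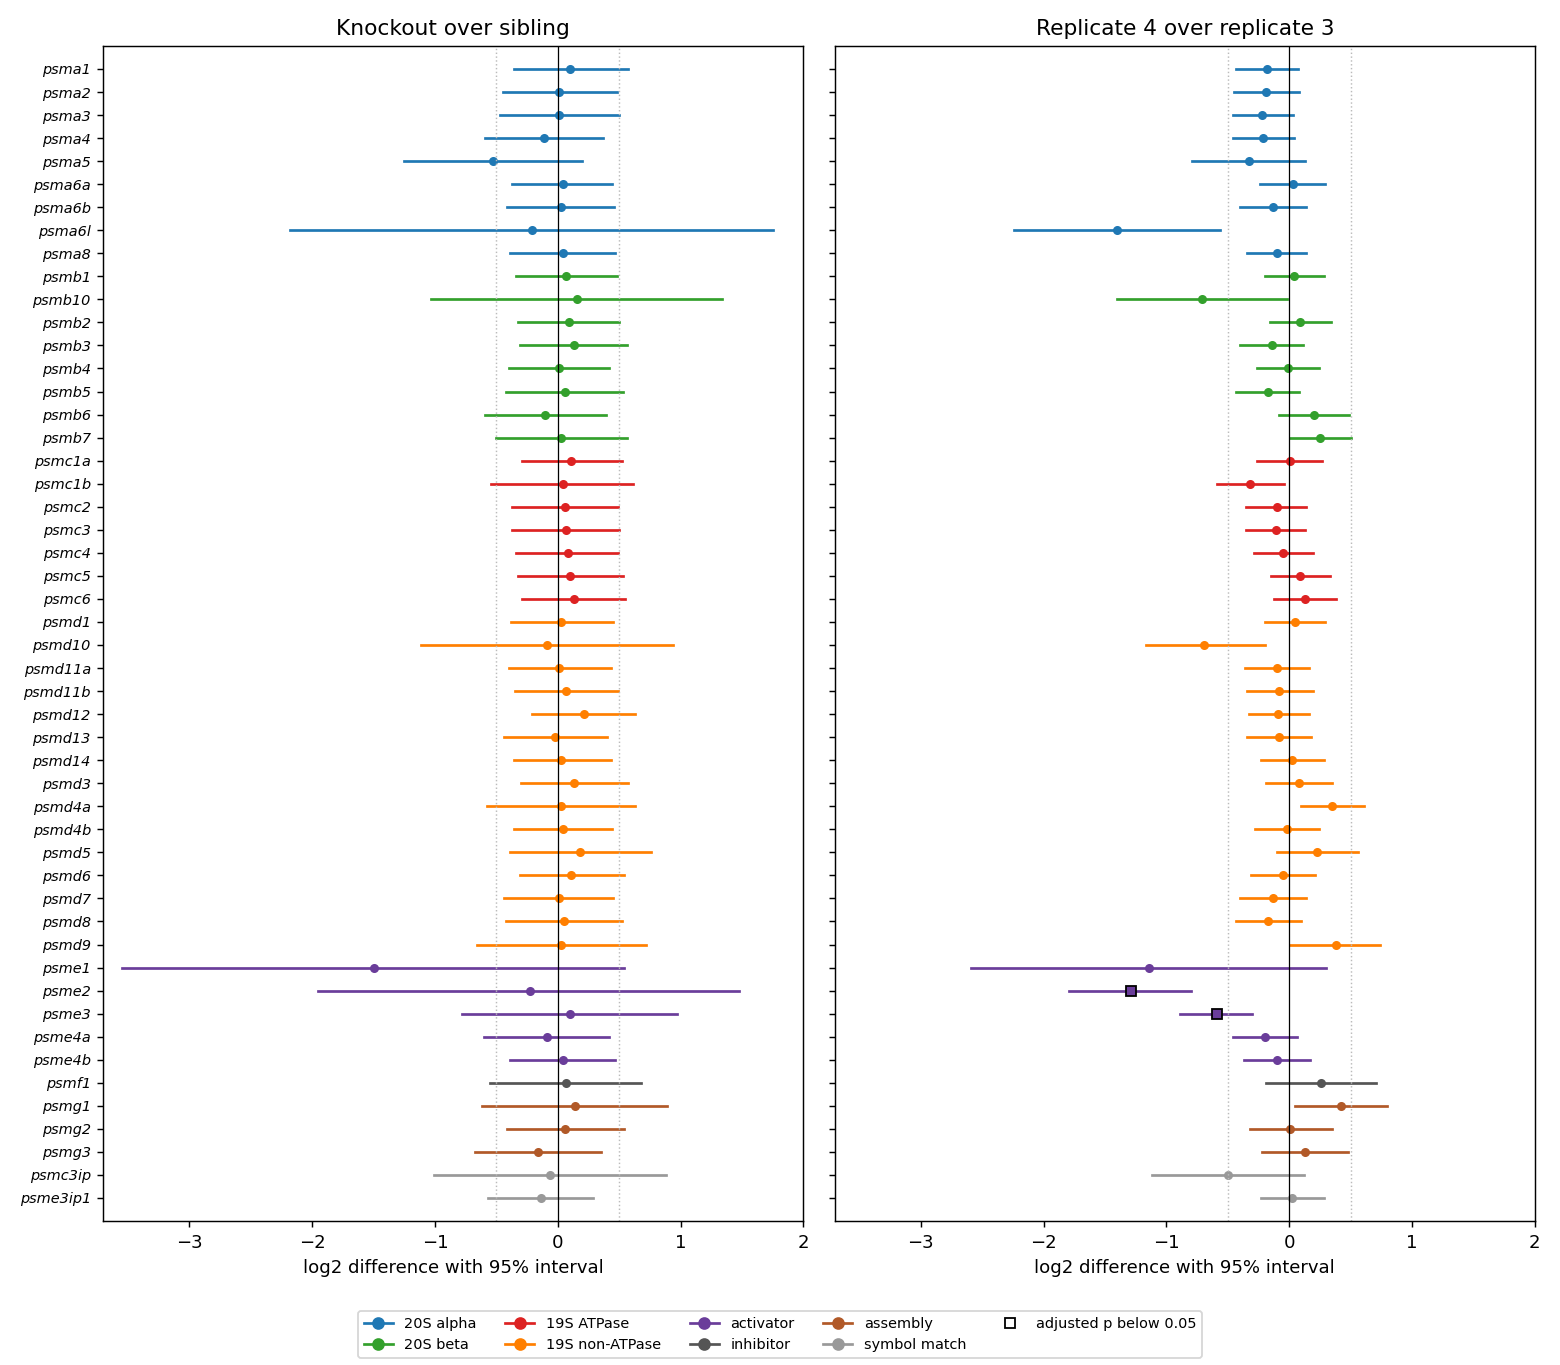
Log2 difference (horizontal axis) with its 95% interval for each of the 50 proteasome genes (vertical axis), knockout over sibling on the left and replicate 4 over replicate 3 on the right, coloured by role. Every interval on the left spans 0, and on the right the square symbols of psme2 and psme3, at -1.29 and -0.59, mark an adjusted p below 0.05.

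The libraries numbered 4 were also compared with those numbered 3, with a term for genotype, because the features called above separate them. The fit has 3 coefficients on 4 libraries, so its error rests mostly on the spread shared between features. Of the 50 genes, 0 were called higher (6.99% of all features) and 2 were called lower (8.16% of all features) in replicate 4. Both were PA28 genes. The share of members called is thus below that of all features. The 50 genes had a median log2 difference of -0.08, replicate 4 over replicate 3, against 0.01 over all features.

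psme2 (ENSDARG00000033144), for PA28 beta, was at 8.38, 3.14, 6.79 and 3.01 CPM. Both replicate 4 libraries lay below both replicate 3 libraries, in either genotype. It fell by 1.29 ± 0.19 on the log2 scale (edgeR adjusted p = 0.0203; DESeq2 adjusted p = 0.0107). With no term for genotype its edgeR adjusted p was 0.0103. In that fit, without sibling replicate 4 the log2 difference was -1.33 with an adjusted p of 0.0547, and without knockout replicate 4 it was -1.28 with 0.0511.

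psme3 (ENSDARG00000012234), for PA28 gamma, was at 27.3, 19.8, 31.4 and 19 CPM. Its replicate 4 libraries also lay below both replicate 3 libraries. It fell by 0.59 ± 0.11 on the log2 scale (edgeR adjusted p = 0.0348), and in DESeq2 its adjusted p was 0.0605. With no term for genotype the edgeR adjusted p was 0.0215, and in that fit it was 0.125 without sibling replicate 4 and 0.13 without knockout replicate 4.

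The third PA28 gene did not follow them in both genotypes. psme1 had its high value in sibling replicate 3 alone, and its log2 difference by number of -1.14 ± 0.56 (adjusted p = 0.219) was 0.07 without that library. psme4a, at 19.5, 17.1, 18.4 and 15.9 CPM, had a log2 difference of -0.20 ± 0.10 (adjusted p = 0.236). psme4b, at 54.1, 53.8, 59.3 and 51.9 CPM, had one of -0.10 ± 0.11. In FPKM the activators amounted to 0.0448 and 0.0426 of the 20S sum in replicate 3 and to 0.0317 and 0.0297 in replicate 4.

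The 20S alpha genes had mostly negative differences in replicate 4, with none called in the fit with both terms. Their sum was 449.3, 395.9, 443.7 and 402.5 CPM, against 438.7, 450.8, 444.5 and 471.6 CPM for the beta genes. The ratio of alpha to beta sums was 1.02 and 0.998 in the replicate 3 libraries. It was 0.878 and 0.853 in the replicate 4 libraries, so the numbers did not overlap. The sums leave out rows outside the symbol rule. Among these are the assembled model described as psmb5, at 73.0, 65.0, 80.5 and 68.5 CPM, and a row described as alpha type 2. The ratio was not computed with them. Of 9 alpha genes 8 had a negative difference, with a median of -0.19, and the beta genes were split at 4 and 4 with a median of 0.02.

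psma6l (ENSDARG00000043899) was the alpha gene farthest from 0. It was at 3.86, 1.05, 2.78 and 1.45 CPM, lower in both replicate 4 libraries, with a log2 difference of -1.40 ± 0.33 (edgeR adjusted p = 0.0509). On the same libraries its adjusted p was 0.0476 with RLE size factors, 0.0238 by total counts and 0.0273 with no term for genotype, and 0.112 in DESeq2. psma3 and psma4 had smaller differences of -0.22 ± 0.10 (adjusted p = 0.182) and -0.21 ± 0.10 (adjusted p = 0.199). In the beta ring psmb7 had 0.25 ± 0.09 (adjusted p = 0.132) and psmb10 had -0.71 ± 0.27 (adjusted p = 0.136), so the gene and its immunoproteasome counterpart had opposite signs with neither called.

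In the 19S, the medians by number were -0.05 for ATPase and -0.05 for non-ATPase genes. psmc1b was at 48.7, 36.6, 47.2 and 40.4 CPM, and its copy psmc1a at 31.0, 29.3, 31.6 and 33.7 CPM. The first was lower in both replicate 4 libraries, at -0.32 ± 0.11 (adjusted p = 0.107), and the second had a log2 difference of 0.01 ± 0.10. psmd4a (ENSDARG00000101295) was at 54.3, 67.2, 53.3 and 70.5 CPM, higher in both replicate 4 libraries, at 0.35 ± 0.10 (adjusted p = 0.0739).

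Chaperones of proteasome assembly differed in sign. psmd10 (ENSDARG00000015628) was at 6.78, 3.97, 6.09 and 4.03 CPM, lower in both replicate 4 libraries, with a log2 difference of -0.69 ± 0.19 (adjusted p = 0.0712). psmd9, for another chaperone of the 19S base in mammals, was at 8.19, 11.7, 9.29 and 11.0 CPM, higher in both, with 0.38 ± 0.14 (adjusted p = 0.137). psmg1 had 0.42 ± 0.15 (adjusted p = 0.116). None of the 3 passed the test.

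Both replicate 4 libraries lay below both replicate 3 libraries for 23 members, against 32.9% of all features, and above them for 9 members, against 32.8% of all features. The 23 were 7 alpha, 3 beta, 3 ATPase and 5 non-ATPase genes, 4 activators and psmc3ip. The interval of the difference by number lay within 0.5 log2 units for 36 genes (72.0%). The share was 22.1% of all features and 40.7% of those with a mean of at least 10 CPM. Here too, neither set is matched to the members in level.

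The count of called members varied with the fit, and in each fit named here its share lay below that of all features. With no term for genotype, 5 of the 50 were called on all 4 libraries, against 18.4% of all features. Leaving out a library in that fit gave 8 members without knockout replicate 3 and 4 without sibling replicate 3, against 24.0% and 24.4% of all features. It gave 0 without knockout replicate 4 and 0 without sibling replicate 4, against 6.57% and 4.42%.

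**Figure D3:**
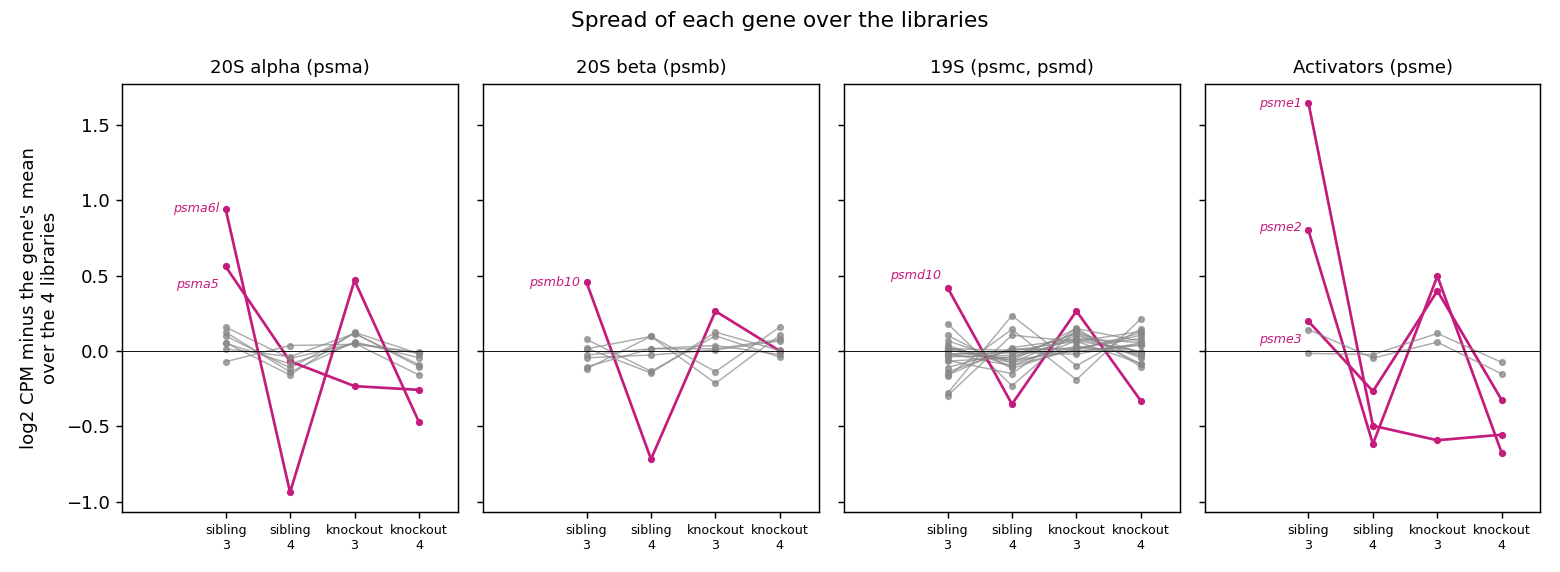
Log2 CPM minus the gene's mean over the 4 libraries (vertical axis) by library (horizontal axis), with 1 line per gene in panels for the 20S alpha, 20S beta, 19S and activator genes. The genes drawn in colour are those whose highest library is more than 1.6 times their lowest, and the other lines stay close to 0 in every library.

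Over the 4 libraries the highest CPM of a member was a median of 1.19 times its lowest. The same median was 1.43 over all features and 1.33 over features with a mean of at least 10 CPM. Neither set is matched to the members in level. The median level was 23.2 FPKM for members, against 3.2 over all features and 8.29 over the second set. The narrowest member was psmd14, for the deubiquitinase Rpn11 of the lid, at 46.2, 46.5, 46.7 and 48.1 CPM, a ratio of 1.04. The widest was psme1 at 4.72. By subgroup the median ratio was 1.14 in the 19S ATPase genes, 1.16 in the non-ATPase genes, 1.2 in the alpha genes, 1.19 in the beta genes and 1.66 in the activators.

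The ratio of the 20S to the 19S sum was 0.705, 0.678, 0.665 and 0.671 in CPM, with a mean of 0.680 ± 0.0174 (SD over the 4 libraries). In FPKM it was 1.09, 1.07, 1.04 and 1.05. On both scales the knockout libraries lay below the siblings, for sums over the rows of the symbol rule. The assembled model described as psmb5, at 73.0, 65.0, 80.5 and 68.5 CPM, is not in the 20S sum. Nor is the row described as alpha type 2. The 19S sum leaves out sem1, at 46.3, 49.3, 45.5 and 48.7 CPM, and adrm1, at 25.9, 35.3, 28.8 and 32.1 CPM. Both are on the list of other proteasome parts read below. The ratio was not computed with these rows and was not tested. Whether the order of the groups holds with them is thus not known.

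Genes that work with the proteasome were read from lists chosen for their function, with earlier results of these data known. No list had a gene called between genotypes, where edgeR called 0 of all features. Calls by number varied with the fit, as did those over all features. The share of all features called by number was 15.1% in the main fit and 18.4% with no term for genotype. It was 19.6% by total counts and 22.7% with a mean count of at least 100. Shares with 1 library left out are given above. Of 12 measured genes for other proteasome parts and assembly, 0 were called by number, with a median log2 difference of 0.09. By total counts 1 was called lower. With a mean count of at least 100, and with no term for genotype, 1 was called higher and 1 lower. Without sibling replicate 3, 2 were called higher and 1 lower, and without knockout replicate 3, 1 was called higher. Examples are zfand5a, which codes in mammals for a proteasome-binding zinc finger protein, at 0.38 ± 0.10 (adjusted p = 0.0657), and uchl5, for a deubiquitinase of the 19S, at -0.64 ± 0.18 (adjusted p = 0.0729).

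Of 13 measured genes for transcription of proteasome genes, 1 rose and 1 fell in replicate 4, with a median of 0.01. By total counts 3 fell, and with no term for genotype 2 rose and 2 fell, as also without either replicate 3 library. Without knockout replicate 4, 0 rose and 1 fell, so the call of keap1b was lost there. keap1b, for an adaptor that has Nrf2 degraded, was at 15.4, 24.7, 14.2 and 27.3 CPM and rose by 0.81 ± 0.12 (adjusted p = 0.0185). hsf2, for a heat shock factor, was at 33.7, 9.80, 29.2 and 13.1 CPM and fell by 1.46 ± 0.18 (adjusted p = 0.0128). The genes for Nrf1, nfe2l1a and nfe2l1b, had log2 differences of -0.63 ± 0.16 (adjusted p = 0.0649) and 0.06 ± 0.17.

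Of 14 measured ubiquitin and shuttle genes, 3 rose and 0 fell in replicate 4, with a median of 0.13. Without sibling replicate 4, 1 rose. ubqln4, for a shuttle that carries ubiquitinated proteins, rose by 1.01 ± 0.09 (adjusted p = 0.00859). vcp, for the p97 segregase, rose by 0.55 ± 0.10 (adjusted p = 0.0314), and ube3c, for a proteasome-bound ubiquitin ligase in mammals, by 1.03 ± 0.19 (adjusted p = 0.0336).

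Of the 12 lists read, the cytosolic chaperones had the largest median difference by number. Of 22 measured genes 17 rose and 0 fell in replicate 4, with a median log2 difference of 1.98, and their sum was 6660, 15200, 6170 and 15000 CPM. hsph1, for an Hsp110 chaperone, was at 3.08, 210, 3.12 and 221 CPM and rose by 6.12 ± 0.12 (adjusted p = 0.001). hspb1, for a small heat shock protein, rose by 5.06 ± 0.12 (adjusted p = 0.001). The list holds a few mitochondrial and secretory pathway chaperones too, hspd1, hspe1 and serpinh1b, which were among the 17. In the same libraries the 20S and 19S sums in CPM had log2 ratios of -0.05 and -0.02, replicate 4 over replicate 3. In FPKM these were -0.14 and -0.13.

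Of 15 measured genes of MHC class I and interferon signalling, 3 fell and 1 rose in replicate 4, with a median of -0.43. Their sum was 329, 185, 312 and 201 CPM, lower in both replicate 4 libraries. tapbpl, for a tapasin-like peptide editor, was at 20.3, 6.50, 25.3 and 6.78 CPM and fell by 1.77 ± 0.13 (adjusted p = 0.00554). b2ml, for a beta-2-microglobulin, was at 156, 70.8, 144 and 79.0 CPM and fell by 1.00 ± 0.11 (adjusted p = 0.0113). mhc1zba, for an MHC class I chain, fell by 1.78 ± 0.22 (adjusted p = 0.0142), and mhc1zja, another such chain, rose by 1.25 ± 0.23 (adjusted p = 0.0328) and was not called by DESeq2. The interferon signalling genes stat1a, stat1b, irf1b and irf9 were not called in the main fit (edgeR adjusted p = 0.0998, 0.133, 0.0893 and 0.0729). By total counts 5 of the 15 were called lower and 1 higher, in a fit that called 19.6% of all features in either direction. Of 7 measured autophagy receptor genes 0 were called, with a median of 0.18.

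Some marker genes of blood cells moved with the number as well. The 1 measured lymphoid marker, ikzf1, was at 2.96, 1.21, 3.39 and 1.68 CPM and fell by 1.15 ± 0.25 (adjusted p = 0.0445), which DESeq2 did not call (adjusted p = 0.215). Of 5 neutrophil markers 1 fell, mmp9, by 0.79 ± 0.11 (adjusted p = 0.018), and the sum of the list was 137, 130, 187 and 145 CPM. The median of the list by number was 0.05, with mmp13a at -0.36 ± 0.15, mpx at 0.11 ± 0.11, nccrp1 at 0.10 ± 0.12 and lyz at 0.05 ± 0.13. Of 4 measured macrophage markers 0 were called, with sums of 46.1, 47.0, 54.3 and 45.3 CPM. Of 6 muscle markers 2 rose, acta1b by 0.64 ± 0.11 and tnnt3a by 0.85 ± 0.15 (adjusted p = 0.0282 and 0.0294). Of the 2 measured head markers foxg1a rose by 1.59 ± 0.31 (adjusted p = 0.0367), which DESeq2 did not call (adjusted p = 0.162), and otx2b was at -0.14 ± 0.31 (adjusted p = 0.782). With no term for genotype mmp9 was not called. In that fit the calls of ikzf1, foxg1a and both muscle genes were lost without either replicate 4 library, and that of ikzf1 also without knockout replicate 3. Without knockout replicate 3, 5 muscle markers were called higher, and without sibling replicate 3, 4 were, with 2 neutrophil markers called lower. The part of these genes' cells in the values of psme2 and psme3 was not tested.

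**Figure D4:**
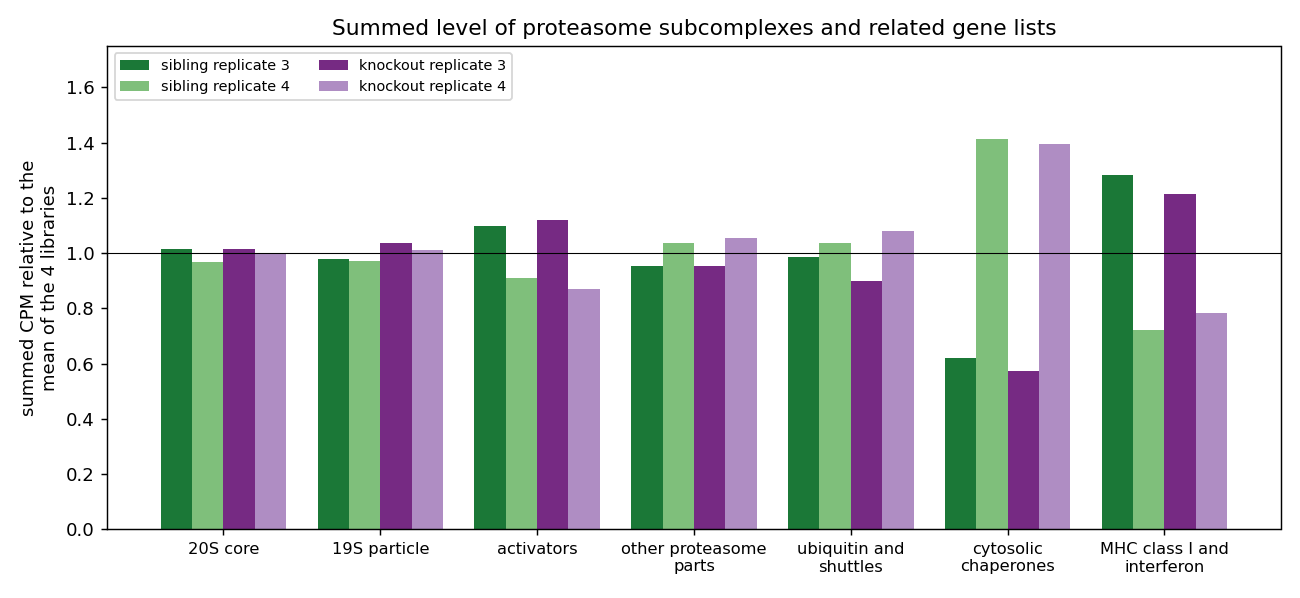
Summed CPM of each gene group divided by its mean over the 4 libraries (vertical axis, from 0), with 4 bars per group, siblings in green and then knockouts in purple, replicate 3 darker than replicate 4. The 20S and 19S bars stay near 1, the activators and the MHC class I list are lower in both replicate 4 libraries, and the cytosolic chaperones are higher in both.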

How the data were processed

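mRNA was measured in 4 libraries, with groups and replicate numbers taken from their titles. Per the submitters' processing notes, HISAT2 2.2.1, DESeq2 1.26.0 and GRCz11 were used. Counter, annotation and strand setting were not given in the sources used here. The authors deposited 1 table with raw read counts and FPKM values per library, and with log2 fold changes and p-values of mutant over sibling, per the file headers. It holds 17610 Ensembl genes and 2314 assembled models, and the smallest of the features' highest counts was 26, so features of low count are not in it. All 50 member identifiers were found in a separate gene-name table.

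Counts were tested with edgeR 4.0.16 in R 4.3.3 (quasi-likelihood test, TMM, filterByExpr, which removed no feature) over all 19924 features, adjusted by Benjamini-Hochberg, with 0.05 as the threshold. Genotype was fitted alone, with a biological coefficient of variation of 32.6%, and replicate number beside genotype, with 15.4%. The standard error is the log2 difference divided by the square root of the F statistic, and 95% intervals use that error. Within each group neither library repeated the other (chi-square over degrees of freedom of 90 between siblings and 77.7 between knockouts). Pairs across the groups were not checked. The fits were also run on simulated data, drawn with a biological coefficient of variation of 15.4% and no effect of the number. Those runs therefore do not show how the genotype test behaves on these libraries. FPKM was used for levels only. DESeq2 1.42.0, other scalings and filters, the replicate number as a block and each library left out were alternatives.

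The members and lists were chosen with earlier results of these data known. Genes were named by a rule: catalytic beta genes, in each subgroup the highest and lowest mean FPKM and the 2 smallest p in each comparison, and up to 3 genes per list. psmb1, psmb4, psmd9, psmd14, psme4b, the gene copies and further genes of lists and markers were named after their values were seen. Sequences and gene positions were not used here.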

Additional observations from a re-analysis of the deposited data

How the results depend on the processing

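Between genotypes, 0 proteasome genes were called under any alternative run, while the count over all features was 19 with DESeq2 and 3 with a replicate block, where 0 members were called. The number was not taken to pair the libraries, since the labels do not say that it marks a shared origin (correlation of deviations 0.619, equal for both numbers by construction with 2 libraries a group). The members' median genotype difference was 0.07 by total counts and 0.01 to 0.08 with 1 library left out. The log2 ratios of summed level were 0.06 (total counts) and 0.07 (FPKM) for the 20S and 0.11 and 0.12 for the 19S. By replicate number, 1 member was called with DESeq2, 5 without the genotype term and 4 by total counts. RLE size factors or a mean count of at least 100 gave 3. The shares of all features called were 10.6% (DESeq2), 18.4% (no genotype term), 19.6% (total counts), 15.9% (RLE) and 22.7% (mean count of at least 100). In each of these fits the share of members called was lower. A count not planned beforehand left out psme1, psme2, psmb10 and psma6l, the members with the widest highest-to-lowest ratios. It left 1 called member, psme3, because the main fit called psme2 and psme3. With 1 library left out 0 to 8 members and 880 to 4867 features were called; these fits have no genotype term and mix it with the number, and a lone library is assumed to vary like the others. The members' median by number was -0.15 by total counts, -0.07 without those 4 genes and -0.09 to -0.03 with 1 library left out. By number, psmc1a was at -0.01 with a mean count of at least 100 and at -0.06 by total counts, and psmg2 at -0.00 and -0.06. The cause was not tested.

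With 1 library left out the sign of the genotype difference was not kept for psma3 (-0.10 to 0.13), psma4 (-0.22 to 0.00), psma6l (-0.87 to 1.00), psma8 (-0.02 to 0.11), psmb10 (-0.31 to 0.85), psmb5 (-0.04 to 0.16), psmb6 (-0.26 to 0.05), psmb7 (-0.12 to 0.17), psmc1b (-0.15 to 0.26), psmd10 (-0.42 to 0.35), psmd4a (-0.18 to 0.21), psmd5 (0.00 to 0.40), psme2 (-0.93 to 0.64), psme3 (-0.31 to 0.43), psme4a (-0.20 to 0.02), psmf1 (-0.10 to 0.22) and psmg1 (-0.15 to 0.50). By number this held for psma5 (-0.72 to 0.07), psmc1a (-0.10 to 0.10), psmd12 (-0.20 to 0.02), psmd6 (-0.15 to 0.04), psme1 (-2.17 to 0.07), psmg2 (-0.06 to 0.08) and psmg3 (0.00 to 0.26). psme1 is read at 30 to 140 counts, which limits its precision.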

Other observations

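The table holds rows outside the symbol rule that it describes as proteasome genes, none of which was called in either comparison. si:rp71-45k5.4, described as proteasome subunit alpha type 2, was at 46.4 and 44.5 CPM in siblings numbered 3 and 4, and at 47.4 and 45.4 CPM in the knockouts. The row CABZ01115113.1, described as proteasome assembly chaperone 4, was at 6.24, 6.69, 6.29 and 7.07 CPM. Both stayed within a narrow band over the 4 libraries, with highest to lowest ratios of 1.06 and 1.13. So did MSTRG.32683.1, with a ratio of 1.09 at 25 to 36 counts. The remaining such rows varied more. The assembled model MSTRG.35929.3 was at 7.37, 6.60, 6.48 and 9.59 CPM, a ratio of 1.48. MSTRG.34789.1 was at 6.82, 7.81, 6.17 and 5.71 CPM, a ratio of 1.37, with both knockouts below both siblings.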
